A study of Mus musculus with 24 samples.

Results

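Peaks of N6-methyladenosine (m6A) enrichment whose summit lay inside an intron were examined in CD11b+ myeloid cells from MC38 tumors, a transplanted mouse colon carcinoma. The 1934 peaks were chosen by their measured values in the 3 IP libraries of untreated WT mice. A peak was taken when it was called in all 3 lists on the same strand with at least 1 bp of overlap. The summit of the replicate with the largest fold enrichment then had to lie in a gene body, outside every exon annotated on that strand, and more than 200 bases from every stop codon. They made up 15.9% of the 12181 peaks shared by the 3 WT Ctrl lists, and they lay in 1180 host genes. The 9521 shared peaks with an exonic summit served for comparison.

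m6A is placed on nascent RNA by a methyltransferase complex and is read by YTH-domain proteins, of which YTHDF2 promotes decay of the marked transcript in the cytoplasm. Exons are joined during transcription at splice sites, and an intron usually ends with the bases AG just before the next exon. Mature messages therefore hold little intronic sequence.

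WT mice carried floxed Ythdf2 alleles without Cre, and cKO mice carried the same alleles with Cre driven from the Lyz2 locus, a gene of myeloid cells. The methods give C57BL/6J as the background and young adult mice of both sexes for all experiments. The mice bore MC38 tumors, left untreated (Ctrl) or given local irradiation of 20 Gy and collected 3 days later (IR). Each of the 4 groups had 3 Input and 3 m6A IP libraries, made from cells pooled over several mice. Where the sorting of cells is described the methods speak of technical replicates, and where peaks are merged of biological ones, so p-values measure the spread between these libraries, which may be technical. The labels gave no batch or date. Gene counts ran from 65180075 to 83661576 in the Inputs and from 68846321 to 86421888 in the IP libraries.

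All 13 myeloid markers examined, Itgam among them, averaged at least 1 CPM (gene counts scaled to an equal library total) in every Input group, and Itgam, which encodes CD11b, ran from 335 to 407 CPM. The targeted gene did not fall with its label. Ythdf2 was at 95.7 to 98.0 CPM in WT Ctrl, 102 to 104 in WT IR, 175 to 186 in cKO Ctrl and 222 to 234 in cKO IR Inputs, and whether the counted reads covered the deleted part could not be seen in gene counts. Lyz2 ran from 19665 to 20891 CPM in WT Inputs and from 298 to 420 in cKO Inputs. It was at 95.3 to 98.3 CPM in the WT IR IP libraries as labelled, but at 20642 to 20924 in the cKO IR ones, the reverse of the Inputs with the same labels. The 6 irradiated IP libraries are therefore called by their label, and results are given with and without them. The summed level of 4 hemoglobin genes was at 25.3 to 28.0 CPM in WT IR Inputs and at most 0.0668 CPM in the other Inputs.

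The sequences around the summits of the 8 peaks with the largest smallest fold over the 3 WT Ctrl replicates show where these summits sit. Each line below gives the host gene, the position in GRCm38 (mm10), the strand and the transcript strand from 75 bases before to 75 bases after the summit. Exon bases are in capitals and intron bases in lower case.
Car4, chr11:84964017-84964167 (+): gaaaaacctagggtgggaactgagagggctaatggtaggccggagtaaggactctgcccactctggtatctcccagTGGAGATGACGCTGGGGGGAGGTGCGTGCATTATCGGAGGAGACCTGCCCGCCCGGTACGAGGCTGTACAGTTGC
Asgr2, chr11:70098152-70098302 (+): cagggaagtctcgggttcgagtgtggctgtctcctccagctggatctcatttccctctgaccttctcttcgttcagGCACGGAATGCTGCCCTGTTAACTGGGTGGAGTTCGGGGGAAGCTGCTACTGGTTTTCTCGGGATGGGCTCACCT
Mgl2, chr11:70134951-70135101 (+): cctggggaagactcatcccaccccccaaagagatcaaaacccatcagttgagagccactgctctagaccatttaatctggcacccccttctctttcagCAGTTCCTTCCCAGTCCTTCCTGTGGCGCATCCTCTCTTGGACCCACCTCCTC
AU022793, chr15:39963997-39964147 (+): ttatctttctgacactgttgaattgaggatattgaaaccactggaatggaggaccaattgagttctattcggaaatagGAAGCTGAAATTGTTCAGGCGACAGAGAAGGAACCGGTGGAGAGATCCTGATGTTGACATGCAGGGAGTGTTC
Ckap2l, chr2:129282026-129282176 (-): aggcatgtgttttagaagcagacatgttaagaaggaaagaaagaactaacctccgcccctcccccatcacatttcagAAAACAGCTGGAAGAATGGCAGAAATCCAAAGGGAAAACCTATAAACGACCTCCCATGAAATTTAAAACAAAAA
Ccdc80, chr16:45116163-45116313 (+): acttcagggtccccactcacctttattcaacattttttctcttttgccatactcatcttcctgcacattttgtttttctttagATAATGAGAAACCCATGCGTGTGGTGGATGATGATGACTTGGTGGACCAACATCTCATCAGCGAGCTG
Plet1, chr9:50500973-50501123 (+): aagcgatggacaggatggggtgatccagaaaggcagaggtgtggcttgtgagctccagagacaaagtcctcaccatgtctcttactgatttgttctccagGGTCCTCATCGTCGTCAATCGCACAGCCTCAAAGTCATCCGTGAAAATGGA
Scimp, chr11:70791564-70791714 (-): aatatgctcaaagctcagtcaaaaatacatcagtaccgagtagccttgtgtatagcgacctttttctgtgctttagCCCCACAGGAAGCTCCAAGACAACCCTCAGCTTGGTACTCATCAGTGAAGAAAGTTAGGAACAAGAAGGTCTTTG

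In all 8 the summit, the 76th base, lay in the intron, and the exon began between 1 and 25 bases later. The intron ended with AG in each. The pentamer GGACT, a frequent form of the m6A consensus, was found in 1 of these windows, in the intronic bases of Car4.

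The same arrangement held for most of the set, and it went against the label of intronic peaks. The called interval of 1838 of the 1934 peaks (95.0%) reached into a same-strand exon, and only 96 peaks (4.96%) were free of exons. The nearest exon lay downstream of the summit for 1828 peaks and upstream for 106. The median distance to it was 12 bases (interquartile range 4 to 26). It was at most 10 bases for 892 peaks (46.1%), at most 25 for 1434 (74.1%) and at most 50 for 1769 (91.5%). Of 1796 summits that lay within 100 bases before an exon whose start was the nearest edge, 1777 (98.9%) had AG as the last bases of the intron. The peaks were narrow, with a median width of 192 bases against 321 for peaks with an exonic summit, and the narrowest peak in any list had 150 bases.

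**Figure D1:**
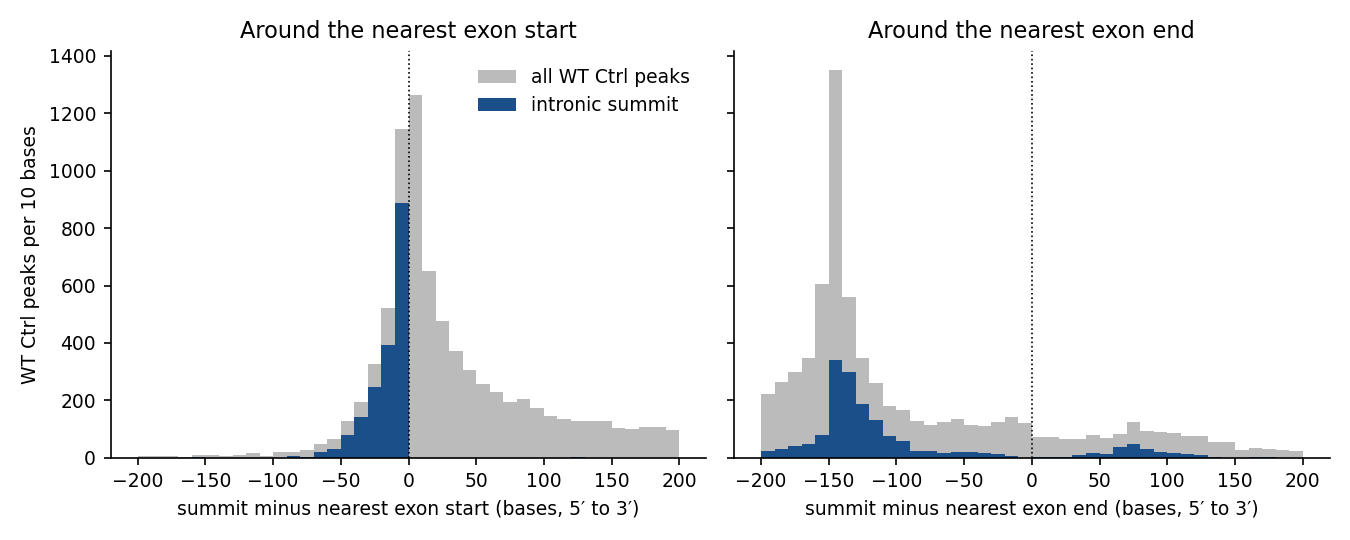
Number of WT Ctrl peaks per 10 bases (y axis) by the distance in bases from the nearest exon start (left) or exon end (right) to the summit, 5′ to 3′, for all shared peaks (grey) and for those with an intronic summit (blue). The intronic summits form the left flank of a single pile-up at exon starts, with 889 of them in the last 10 bases before an exon, and few lie just after an exon end.

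The position profile showed no gap between intronic and exonic summits. The last 10 bases before an exon start held 1145 summits, 889 of them intronic, and the first 10 bases of exons held 1263. Over 50 bases the intronic summits numbered 1753 before an exon start and 34 after an exon end. The threshold of the rule thus ran through the densest part of the distribution, and 168 members lay 1 base from an exon. At the stop codon threshold the closest member lay 201 bases away, 57 lay within 300 bases, and 308 peaks with an intronic summit otherwise were left out, the farthest at 200 bases. For 1455 members (75.2%) the summits of all 3 replicates were intronic by themselves, and in the other 479 at least 1 replicate had its own summit elsewhere. The 3 summits of a member spanned a median of 6 bases.

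The distance to the far end of the downstream exon was measured as well. From the summit to the last base of that exon the median distance was 144.5 bases (interquartile range 131 to 190) over 1796 members, and 869 (48.4%) lay between 130 and 170 bases from it. In the profile around exon ends the bin from 150 to 141 bases before the end held 1350 of the shared peaks, against 606 and 559 in the neighboring bins. Intronic summits numbered 339 in this bin, against 78 and 300 in the same neighbors. The study's methods give a fixed fragment extension of 150 bases for peak calling. The part of this extension in the position of the summits was not tested. Internal exons that followed a member had a median length of 134 bases (n = 1723) against 140 for all internal exons of the host genes (n = 11084). The interquartile range of the former was 110 to 170.5 bases. The part of exon length in the distance to the far end was not tested. In the first 100 bases of these exons GGACT was found in 9.77% of 1505, against 10.2% of 7813 other internal exons of the same genes, and GGAC, which also counts every GGACT, in 35.0% against 33.9%.

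The folds that chose the members are given as a description. Their smallest fold over the 3 replicates had a median of 3.90 and ran from 1.36 to 26.7, and the median was 2.79 for peaks with an exonic summit. Away from stop codons it was 2.85 in coding sequence, 2.64 in 3′ UTRs, 3.34 in 5′ UTRs and 3.71 in noncoding exons. The strongest was in Car4, which encodes a membrane-bound carbonic anhydrase, with folds of 29.2, 30.0 and 26.7 in WT Ctrl replicates 1 to 3. In Asgr2, a subunit of the asialoglycoprotein receptor, they were 26.0, 25.4 and 25.2. In Mgl2, a C-type lectin of macrophages and dendritic cells, they were 23.2, 24.4 and 23.0. The 3 values of a gene lay close together, with a median coefficient of variation of 13.6% over all members. AU022793, a non-coding RNA, had folds of 22.5, 25.4 and 28.0. Ckap2l, a spindle protein, had 23.6, 21.3 and 26.7. Ccdc80 had 20.2, 21.2 and 19.8. Plet1, a surface protein, had 20.1, 21.5 and 19.7, and Scimp, an adaptor of immune receptors, had 20.0, 19.3 and 20.8. Arg1 held 2 of the highest 20 peaks. It encodes the arginase that consumes arginine in suppressive myeloid cells. In front of the exon after intron 2 they were 18.2, 19.7 and 18.6, and in front of the exon after intron 5 they were 16.6, 16.9 and 15.8. The other 10 of the highest 20 lay in Jaml, Prc1, Spint1, Cenpq, Aunip, B3galt2, Plxdc2, Ccdc34, Tfec and Nuf2.

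The libraries that took no part in the choice gave independent readings of these 20 peaks. All 9 other IP libraries listed a peak at 18 of them, 7 did at Plxdc2 and 6 at Ccdc34. Car4 was higher outside WT Ctrl, at 33.3 to 35.8 in cKO Ctrl and at 32.3 to 38.0 in the irradiated libraries. Asgr2 was lower everywhere else, at 12.6 to 18.3 in cKO Ctrl, 9.50 to 10.8 in the libraries labelled WT IR and 15.0 to 16.2 in those labelled cKO IR, so that no library reached the WT Ctrl values. Scimp had 6.84 to 9.06 in cKO Ctrl and 8.66 to 13.2 in the libraries labelled cKO IR, below all 3 WT Ctrl values. Those labelled WT IR had 23.6, 23.7 and 14.1, on both sides of WT Ctrl. In Ckap2l the ranges overlapped, with 21.4 to 26.8 in cKO Ctrl. For Prc1 and Nuf2, both of the mitotic spindle, cKO Ctrl had 15.4 to 16.3 and 13.1 to 17.0, and the irradiated libraries had 7.32 to 12.1 and 6.07 to 9.37. These folds come from separate peak calls over Inputs that also differ, and no test compared them between groups.

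**Figure D2:**
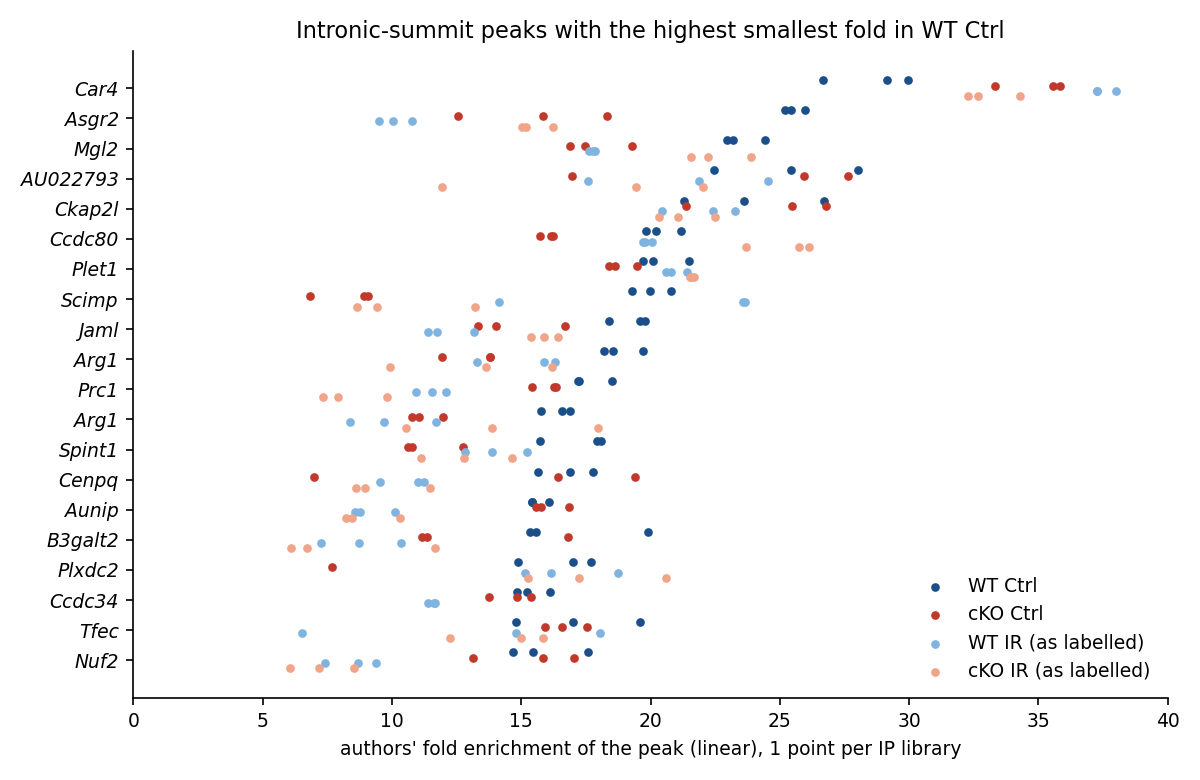
Fold enrichment as given by the authors' peak caller (x axis, linear) for the 20 peaks with the largest smallest fold in WT Ctrl (y axis, host genes), 1 point for each of 12 IP libraries, colored by group. The WT Ctrl points chose the peaks, Car4 reaches 38.0 in the libraries labelled WT IR, and Plxdc2 and Ccdc34 lack points where no peak was called.

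For several of these genes the Input, which forms the denominator of the fold, held few reads. Car4 had 0, 0 and 1 counts in the WT Ctrl Inputs and 6443, 6587 and 6210 in the IP libraries. With 1 count over 3 Inputs no ratio of its gene counts is given. The peak folds of Car4 above, in every group, were called over Inputs with few counts for the gene. Its other Inputs were at 10, 9 and 1 counts in cKO Ctrl, 1, 0 and 1 in WT IR and 16, 16 and 17 in cKO IR, while its other IP libraries held 9930 to 15636. Plet1 had 131, 143 and 119 counts in the WT Ctrl Inputs and 51806, 51934 and 54106 in the IP libraries. Arg1 had 128, 137 and 173 against 5725, 5415 and 5258. Across the 19 host genes of the 20 peaks, 11 had fewer than 10 CPM in the WT Ctrl Inputs, which states the depth behind the fold and not a level per length. The IP excess was also seen in counts of the whole gene. In cKO Ctrl the log2 ratio of IP to Input was 8.02 for Plet1, 5.08 for Ccdc80, 4.93 for Mgl2 and 3.93 for Asgr2. The lowest of the 19 was Plxdc2 at 1.20, and the median of all genes was 0.02. How much of each fold was local to the peak and not shared by the whole gene was not tested.

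Recurrence in the other groups was lower for intronic than for exonic summits in all 3. Of the 1934 members, 1364 (70.5%) overlapped a peak shared by the 3 cKO Ctrl libraries, 1085 (56.1%) one shared by those labelled WT IR and 895 (46.3%) one shared by those labelled cKO IR. The shares for peaks with an exonic summit were 77.5%, 67.9% and 60.7%. Not all exonic positions were alike. Away from stop codons, peaks in noncoding exons stood at 73.5%, 52.9% and 48.8%, and those in 5′ UTRs at 70.4%, 64.7% and 53.8%. In all 3 other groups 672 members (34.7%) recurred, against 48.5% of the exonic ones and 35.0% of those in noncoding exons. In none of them 367 members (19.0%) recurred, against 12.3% of the exonic peaks and 13.6% of all shared peaks. This share was 19.1% in 5′ UTRs and 17.4% in noncoding exons. Without the irradiated libraries the comparison rests on the cKO Ctrl shares, 70.5% and 77.5%, and no test was run on these shares. Any overlap of the intervals counted, and members had a median width of 192 bases against 321 for peaks with an exonic summit. The part of width in the shares was not tested. Where a member recurred its summit was intronic again in 1178 of 1364 cases (86.4%) in cKO Ctrl, 921 of 1085 (84.9%) in WT IR as labelled and 742 of 895 (82.9%) in cKO IR as labelled.

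**Figure D3:**
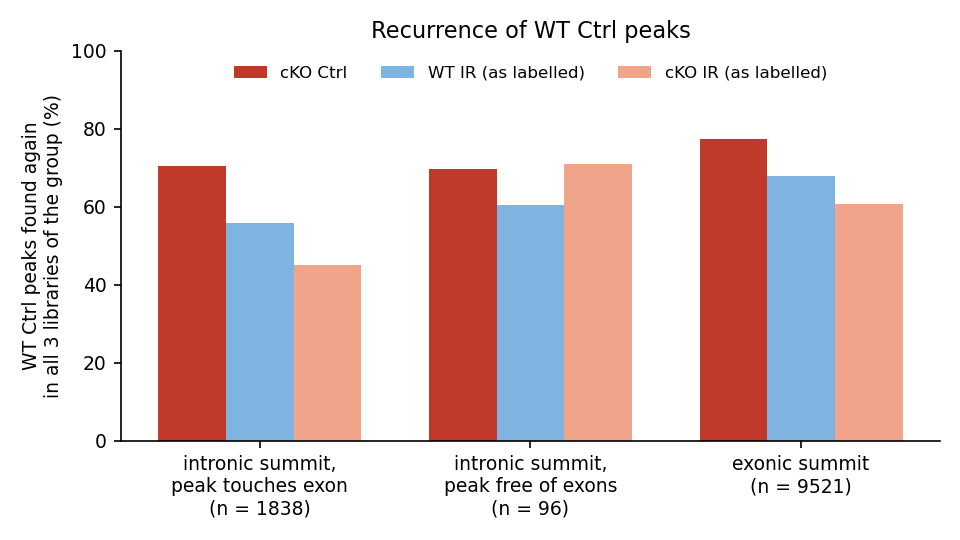
Share of WT Ctrl peaks (y axis, %) that overlap a peak shared by all 3 IP libraries of another group, for intronic summits whose interval touches an exon, intronic summits whose interval is free of exons, and exonic summits. In the libraries labelled cKO IR the bars are 45.0%, 70.8% and 60.7%.

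The 96 peaks free of exons are described apart from the rest. Only exons of the same strand were counted for this. Of all 1934 summits, 40 lay in an exon of the opposite strand, and these were not split by subset. By the way the 96 were split off, their summits lie farther from exons of their strand. The median distance was 1774 bases (81 to 142343), and it was more than 1000 bases for 60 of them, and the nearest exon was downstream for only 27. Their median width was 355.5 bases against 189 for the members that touched an exon. GGACT, searched on the peak's strand within 50 bases of the summit, was found in 20 of 96 (20.8%) against 135 of 1838 (7.34%), and in 12.1% of exonic windows. Soft-masked repeat sequence made up 39.6% of these windows against 13.0%. Hosts other than protein-coding genes held 29 of them (30.2%), compared with 64 of all 1934 members (3.31%). Their recurrence was 69.8% in cKO Ctrl, 60.4% in WT IR and 70.8% in cKO IR, both as labelled. No test was run between the 2 subsets.

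The strongest peak free of exons was in Gm34907, a lincRNA, with WT Ctrl folds of 15.8, 13.0 and 12.6 and a summit 1755 bases past the nearest exon. In E230016K23Rik, a processed transcript, the folds were 11.95, 11.04 and 12.04. A930007I19Rik, an antisense RNA, had 10.7, 11.7 and 14.4 at its strongest peak of this kind. In Gm49101, a lincRNA, they were 21.2, 10.1 and 18.1, and its window held GGACT. These 4 peaks were listed in all 9 other IP libraries. Their hosts averaged 0.0137, 1.01, 10.7 and 0.0445 CPM in the WT Ctrl Inputs, in the order named. The peak of E230016K23Rik adjoins one assigned to Ccl6 on the opposite strand, and Ccl6 averaged 886 CPM there. Hosts were assigned by position, and whether the reads came from their transcripts was not tested. Among protein-coding hosts, Mertk, a receptor kinase for the uptake of apoptotic cells, had 7.96, 7.19 and 7.53 at a summit 2192 bases from an exon, in a window that was 100% repeat. Cd200r3, a receptor of the CD200R family, held 3 exon-free peaks in its first intron, with the strongest at 7.94, 6.62 and 8.19, and all 3 windows were fully repeat. Spidr had 7.48, 7.10 and 7.54 and was listed in 5 of the 9 other libraries. Gm20388, a readthrough gene model, spans other genes, so its 3 exon-free peaks cannot be assigned to it.

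Every IP library held peaks of this kind. The share of a library's peaks with an intronic summit was 17.1%, 17.1% and 16.5% in WT Ctrl, 15.9%, 16.0% and 16.6% in cKO Ctrl, 15.0%, 16.4% and 14.6% in WT IR as labelled, and 13.8%, 14.0% and 13.8% in cKO IR as labelled. The means were 16.9% ± 0.341, 16.2% ± 0.344, 15.3% ± 0.934 and 13.9% ± 0.134 (SD, n = 3 each). All 3 libraries labelled cKO IR lay below the other 9. Over both genotypes the share was 1.94 percentage points lower in irradiated than in untreated libraries, a difference of -1.94, and the exact permutation test with labels permuted within genotype gave p = 0.005, two-sided, the smallest that 400 arrangements can give. The untreated side of this test, and of the WT difference that follows, includes the 3 WT Ctrl libraries that chose the members. Within genotype, as labelled, the differences were -1.55 points in WT and -2.32 in cKO, each with an exact permutation p of 0.1, the smallest that 20 arrangements can give. Since Lyz2 in these IP libraries ran opposite to the Inputs, the assignment of either difference to a genotype rests on labels that the data go against. The strata of the test over both genotypes rest on the same labels. The genotypes were not compared. The 12 libraries also differed in their number of peaks, from 13470 to 17606, and the part of that number in the shares was not tested. Between cKO Ctrl and WT Ctrl, where no irradiated library enters, the difference was -0.689 points with an exact permutation p of 0.2, and the WT Ctrl libraries had also chosen the members. When only peaks free of exons were counted the irradiation difference turned to 0.144 points higher (exact permutation p = 0.065).

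**Figure D4:**
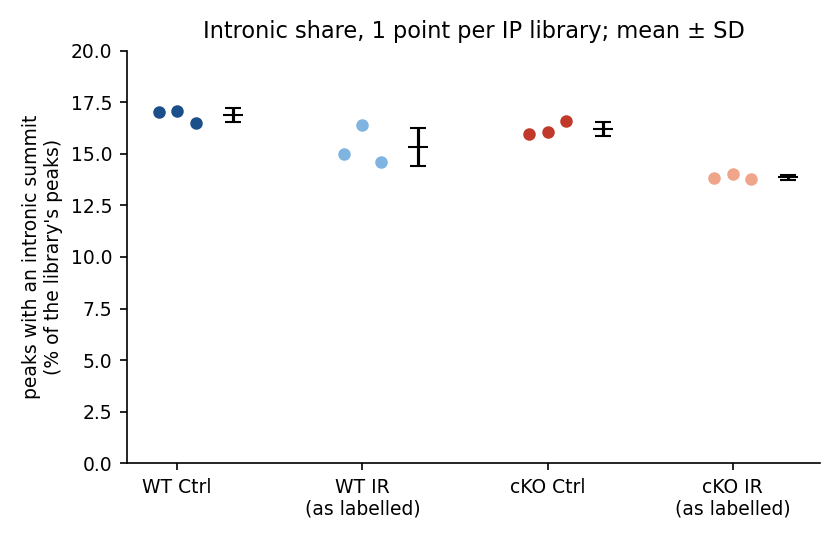
Peaks with an intronic summit as a percentage of all peaks of the library (y axis, from 0), 1 point for each of the 3 IP libraries of 4 groups, with mean ± SD in black. The 3 libraries labelled cKO IR sit between 13.8% and 14.0%, below the other 9.

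Within a library, intronic and exonic summits differed in fold and in sequence. Over the 9 libraries that did not choose the members, the median fold was 4.54 ± 0.0951 for intronic and 3.07 ± 0.0399 for exonic summits (SD, n = 9), and the intronic one was higher in 9 of 9. GGACT was found in 8.18% ± 0.591 of intronic and 11.5% ± 0.294 of exonic windows that reach 50 bases to either side of the summit, lower in 9 of 9. Adenine made up 25.7% and 26.2% of the bases, a difference of -0.459 points. The exact sign-flip permutation test over the 9 libraries gave an adjusted p of 0.00390625 for each of the 3 measures, the smallest it can give. The libraries share many genome positions, so this p measures the spread between libraries only, not that between peaks. With the cKO Ctrl libraries alone the differences were 1.39 in fold, -3.74 points in GGACT and -0.328 points in adenine, with the same sign in 3 of 3, and the exact permutation p of 0.25 was the smallest that 3 libraries allow. When only peaks free of exons were counted as intronic, GGACT was 5.09 points and adenine 3.40 points higher than in exonic windows, the opposite direction. Among the shared WT Ctrl peaks, GGACT was found in 8.01% of intronic windows and, away from stop codons, in 8.64% of noncoding exon windows. It was found in 10.8% in coding sequence, 12.3% in 5′ UTRs and 13.8% in 3′ UTRs.

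The host genes fell into 783 with 1 member and 397 with more. The 42 genes with at least 5 members held 259 of the peaks. Top2a, the topoisomerase that untangles chromosomes at mitosis, held 12 in its 35 introns. Kif20b and Kif4, kinesins of cell division, held 10 and 9. Cep295, a centriole protein, Smc2, a condensin subunit, and Usp16, a histone deubiquitinase, held 8 each. Ndc80, of the kinetochore, Nsd2, a histone methyltransferase, Plxdc2 and Tpx2, a spindle assembly factor, held 7 each. All 12 of Top2a, all 10 of Kif20b and all 8 of Smc2 were found again in cKO Ctrl, but only 3 of the 7 of Plxdc2. In 1027 of the host genes (87.0%) a shared WT Ctrl peak with an exonic summit was also present.

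At the gene level 1093 of 1160 tested host genes (94.2%) had higher IP than Input counts in cKO Ctrl by edgeR's quasi-likelihood test (Benjamini-Hochberg adjusted p under 0.05), where 37.8% of all 17373 genes tested did. The median log2 ratio was 1.24 for host genes and 0.02 for all genes. Gene counts cover exons, and the 1023 tested host genes that also had an exonic peak stood at 97.6%, the 137 without one at 69.3%. In WT Ctrl, where the members were chosen, the median log2 ratio was 1.29 and no test is given. Of the 10 genes with most members, Kif20b had the largest log2 ratio in cKO Ctrl, 3.25 ± 0.05 (SE, edgeR adjusted p = 8.2e-33), and Nsd2 the smallest but for Plxdc2, 1.66 ± 0.03 (edgeR adjusted p = 9.2e-30). Plxdc2 stood at 1.20 ± 0.03 (edgeR adjusted p = 2.3e-27).

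In the Inputs, host genes were lower after irradiation more often than other genes in both genotypes. Of 1154 tested host genes, 474 (41.1%) had fallen and 108 (9.36%) had risen in irradiated WT by edgeR, against 17.0% and 14.7% of all 16090 genes tested. In cKO, 476 (41.2%) were lower and 274 (23.7%) higher, against 23.8% and 21.8%. The median log2 change was -0.11 in WT and -0.09 in cKO for host genes, and 0.01 for all genes in each. The WT Ctrl Inputs were part of the peak calls that chose the host genes. The cKO contrast does not use them, but its host genes were still chosen by peaks in untreated cells. Host genes also stood higher, at a median of 29.6 CPM in the WT Ctrl Inputs against 10.3 for all genes tested. The part of this choice in the shares called was not tested. A change in bulk RNA cannot tell fewer cells of a type from less RNA per cell.

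**Figure D5:**
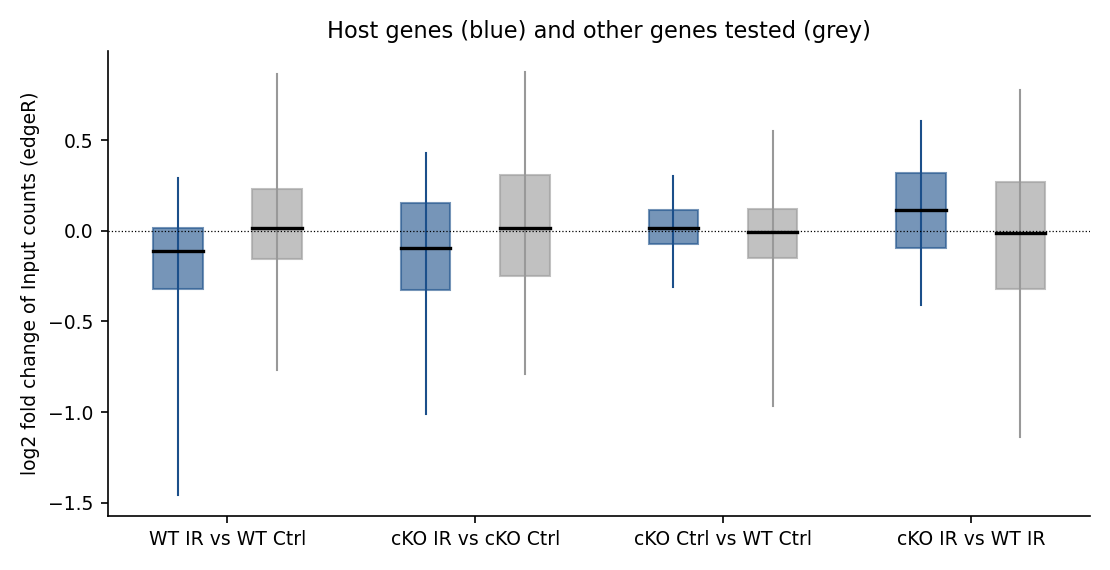
Log2 fold change of Input counts by edgeR (y axis) in 4 contrasts for 1154 host genes (blue) and 14936 other tested genes (grey), with the median as a black line, the middle 50% as a box and the 5th to 95th percentile as a line. The host median is -0.11 in WT IR vs WT Ctrl, -0.09 in cKO IR vs cKO Ctrl, 0.02 in cKO Ctrl vs WT Ctrl and 0.12 in cKO IR vs WT IR.

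The genes with most members showed this direction with little spread. Top2a was at 104, 107 and 112 CPM in the WT Ctrl Inputs and at 36.1, 37.8 and 38.1 in WT IR, a log2 change of -1.52 ± 0.04 (SE, edgeR adjusted p = 6.4e-16). In cKO it went from 88.0, 89.1 and 86.3 to 39.2, 39.8 and 37.1 CPM, a log2 change of -1.18 ± 0.04 (edgeR adjusted p = 4e-14). The irradiated and untreated libraries did not overlap in either genotype. Kif4 changed by -2.00 ± 0.09 in WT and -1.54 ± 0.08 in cKO, and Tpx2 by -1.49 ± 0.05 and -1.23 ± 0.05 on the log2 scale. Of the 10 genes, 8 fell and 1 (Usp16) rose in WT, and 9 fell in cKO. Cep295 had a log2 change of -0.09 ± 0.06 in WT that did not pass (edgeR adjusted p = 0.28). Among the 19 host genes of the 20 highest peaks, 10 fell and 4 rose in WT, and 10 fell and 5 rose in cKO. Of all 16090 genes tested, 17.0% fell and 14.7% rose in WT, and 23.8% fell and 21.8% rose in cKO.

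By size of change, the host genes that fell most in WT after irradiation were Ankle1, Pknox2, Asgr2 and Cd200r3. Asgr2 went from 2.97, 3.12 and 3.25 CPM in WT Ctrl to 0.666, 0.493 and 0.699 in WT IR (log2 change -2.32 ± 0.16, edgeR adjusted p = 7.9e-10), and in cKO from 5.49, 4.72 and 4.68 to 1.40, 1.51 and 1.24 (-1.84 ± 0.14, edgeR adjusted p = 2.2e-09). Ankle1, a DNA repair nuclease, changed by -3.87 ± 0.51 in WT on counts that fell to 1, 6 and 5 per library. Pknox2, a homeobox factor, changed by -2.56 ± 0.39 in WT and -1.97 ± 0.42 in cKO, and Cd200r3 by -2.27 ± 0.32 in WT. In cKO the list was Sapcd2 (-2.17 ± 0.47), Pknox2, Aspm (-1.84 ± 0.08), a spindle protein of dividing cells, and Asgr2.

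By size, the host genes that rose most were B3galt2, Arg1, Plet1 and, on few counts, Gm46349 in WT, and Arg1, Snhg15, B3galt2 and Ccl17 in cKO. Arg1 rose from 1.77, 1.79 and 2.32 CPM to 4.61, 4.20 and 5.21 in WT (log2 change 1.26 ± 0.15, edgeR adjusted p = 1.2e-06) and from 2.04, 1.97 and 2.30 to 4.38, 5.32 and 6.21 in cKO (1.33 ± 0.15, edgeR adjusted p = 2.5e-07). B3galt2, a galactosyltransferase, rose by 1.55 ± 0.17 in WT and 1.28 ± 0.16 in cKO, and Plet1 by 1.04 ± 0.16 in WT, where it had 1.82, 1.87 and 1.59 CPM before and 3.19, 3.43 and 4.14 after. Gm46349 had 0, 1 and 0 counts in WT Ctrl and 7, 2 and 12 in WT IR, too few for a fold. Its call was lost without WT IR replicate 3 (edgeR adjusted p = 0.0591). In cKO, Ccl17, a chemokine for CCR4-bearing T cells, rose from 13.6, 13.1 and 12.5 CPM to 28.2, 30.7 and 30.5 (1.19 ± 0.06, edgeR adjusted p = 4.4e-12), and Snhg15, a small nucleolar RNA host gene, rose by 1.32 ± 0.07. The hemoglobin level of the WT IR Inputs, 25.3 to 28.0 CPM, moved with the WT contrast and not with the cKO contrast, and its part in these changes was not tested.

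Between genotypes without irradiation the hosts were lower in a share close to that of all genes and higher in a larger one. In cKO Ctrl against WT Ctrl, 96 host genes (8.32%) were lower and 142 (12.3%) higher by edgeR, against 7.61% and 8.05% of all genes. The WT Ctrl Inputs are the baseline here and were part of the peak calls that chose the host genes. Host genes had a median of 29.6 CPM in these Inputs, against 10.3 for all genes tested. The part of either in these shares was not tested. Ccl2, the chemokine that draws CCR2-bearing monocytes, went from 4.31, 4.51 and 3.84 CPM to 8.78, 9.26 and 9.11 (log2 change 1.10 ± 0.09, edgeR adjusted p = 5.1e-08). Scimp rose by 1.14 ± 0.14 and Gm4070 by 1.01 ± 0.12, while Gm14221 fell by 1.13 on the log2 scale. Pknox2 (-1.33 ± 0.35) and Cenpk (-0.88 ± 0.24) were also lower, but the call of each was lost without 1 of 2 libraries. Without cKO Ctrl replicate 1 or WT Ctrl replicate 2 the adjusted p of Pknox2 was 0.0603 or 0.0741, and without cKO Ctrl replicate 3 or WT Ctrl replicate 3 that of Cenpk was 0.0851 or 0.0527 (edgeR). Car4 was called higher on the few counts given above, and its call was lost in 4 of the 6 fits that left out a library.

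In irradiated tumors the hosts were higher in cKO more often than lower. In cKO IR against WT IR, 487 host genes (42.2%) were higher and 212 (18.4%) lower by edgeR, against 23.9% and 23.8% of all genes, with a median log2 difference of 0.12 for hosts and -0.00281 for all genes. The hemoglobin genes moved with this contrast too, at 25.3 to 28.0 CPM in WT IR and at most 0.0143 CPM in cKO IR, and with the interaction below, and their part was not tested. Ccl2 stood at 3.07, 2.63 and 2.53 CPM in WT IR and at 12.9, 11.1 and 12.2 in cKO IR (log2 difference 2.13 ± 0.10, edgeR adjusted p = 1.4e-12). Trim30c, of the TRIM30 family with close paralogs whose reads may be split between them, differed by 1.73 ± 0.23 and Ankle1 by 1.91 ± 0.56, and the call of Ankle1 was lost without cKO IR replicate 2 (edgeR adjusted p = 0.0651). Car4 was again called higher, on 16, 16 and 17 counts against 1, 0 and 1. Lower in cKO were Ppp1r18os (-0.996 ± 0.24), Cdk5rap2 (-0.77 ± 0.05), a centrosome protein, Tbc1d2 (-0.76 ± 0.09) and Gm14221 (-0.76 ± 0.17). The irradiation effect itself differed between the genotypes for 477 host genes by the interaction term of the edgeR fit. It was more positive in cKO for 319 (27.6%) and more negative for 158 (13.7%), against 15.0% and 15.2% of all genes. The WT Ctrl Inputs, which were part of the peak calls that chose the host genes, enter this term. Host genes also had a median of 29.6 CPM in them, against 10.3 for all genes tested. The part of either in the shares was not tested. The 4 contrasts share their groups in pairs and are not independent of each other.

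Of all 16090 genes tested in the Inputs, 1154 hosted a member. A shared peak at any position was present in 13 of 21 m6A machinery genes, 28 of 42 splicing factors and 20 of 49 chemokines, cytokines and receptors. It was present in 21 of 40 myeloid transcription factors, 21 of 49 chromatin regulators and 16 of 42 NF-kB genes. No test was run on the host counts of the lists. The m6A machinery had 5 host genes among 21, each with 1 member. These were Virma, Zc3h13 and Wtap of the methyltransferase complex, Ythdc1, the nuclear reader, and Hnrnpa2b1, an RNA-binding protein linked to m6A. The WT Ctrl folds at Virma were 5.78, 4.32 and 5.14, and at Zc3h13 they were 4.47, 4.19 and 6.35, the latter listed in all 9 other libraries. After irradiation Hnrnpa2b1 fell (-0.29 ± 0.03) and Virma rose (0.12 ± 0.04) in WT, and in cKO 4 of the 5 fell and Wtap rose. Of all genes, 17.0% fell and 14.7% rose in WT, and 23.8% and 21.8% in cKO. Zc3h13 had a log2 change of 0.11 ± 0.06 in WT (edgeR adjusted p = 0.17) and -0.45 ± 0.06 in cKO (edgeR adjusted p = 1.4e-06). Wtap had -0.03 ± 0.04 (edgeR adjusted p = 0.56) and 0.25 ± 0.04 (edgeR adjusted p = 1.2e-05).

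Splicing factors held 12 members in 9 of 42 genes, with the highest folds at Srsf4 (8.89, 6.02 and 10.4), an SR protein, and Hnrnpm (6.34, 5.08 and 5.42). U2af2, the factor that reads the polypyrimidine tract before the AG, had 2.62, 2.60 and 2.19 in front of the exon after its first intron. Of these 9 genes 7 fell and none rose after irradiation in each genotype by edgeR, where 17.0% and 23.8% of all genes fell. Srsf4 changed by -0.21 ± 0.05 in WT and -0.20 ± 0.05 in cKO.

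Chemokines, cytokines and their receptors held 9 members in 9 of 49 genes. Ccl2 had WT Ctrl folds of 10.4, 8.91 and 13.6 before the exon that follows its intron, Ccl4 had 11.0, 5.14 and 3.81, and Il1r2, a decoy receptor for interleukin-1, had 5.43, 5.79 and 9.85. The summit assigned to Ccl6 lay 20 bases after an exon and not before it. Its interval, chr11:83589388-83589558 on the minus strand, began at the base that follows the exon-free interval of E230016K23Rik on the plus strand, chr11:83589179-83589387. Ccl2 changed by -0.61 ± 0.10 after irradiation in WT and by 0.42 ± 0.09 in cKO (edgeR adjusted p = 0.00011 and 0.00054). In cKO Ctrl against WT Ctrl 7 of the 9 were higher and 1 lower, where 8.05% and 7.61% of all genes were. Il1r2 was the lower one (-0.73 ± 0.14, edgeR adjusted p = 0.0011).

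Myeloid transcription factors held 8 members in 5 of 40 genes, 3 of them in Irf4 and 2 in Tfec, a MiT-family factor. Tfec had the highest fold of the lists, 17.0, 19.6 and 14.8. Irf4, which directs monocyte-derived and lymphoid fates, had 5.99, 10.5 and 5.97 at its strongest and rose after irradiation by 0.66 ± 0.05 in WT and 0.39 ± 0.05 in cKO (edgeR adjusted p = 6.5e-10 and 6.1e-07). Chromatin regulators held 11 members in 4 of 49 genes, 7 of them in Nsd2 (strongest 12.3, 15.3 and 13.6), and the adhesion and small GTPase list held 7 in 3 of 45, 5 of them in Itgax, which encodes CD11c. The NF-kB list had 2 host genes of 42, Otulin and Birc3, and the interferon list 1 of 41, Ifi209. A shared peak at any position was present in 11 of the 45 adhesion genes and 10 of the 41 interferon genes. Of the 8 marker lists for cell types, only tumor epithelium had a host, Cdh1, with 4 members and folds of 11.5, 15.8 and 13.5 at the strongest. Cdh1 encodes E-cadherin. It stood at 4.56 to 6.71 CPM on average in the 4 Input groups, and the summed epithelial markers ran from 5.57 to 8.05 CPM, with 1 or 2 of the 7 at 1 CPM or more.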

How the data were processed

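Libraries of Input and m6A IP RNA (24 in all, 12 of each) were grouped by the labels. According to the study's methods and the submitters' processing notes, the authors trimmed reads (Trimmomatic 0.39), aligned them to mm10 with HISAT and a GENCODE annotation, split them by strand with SAMtools, and ran MACS2 on each library against Input, separately for each strand. bedtools 2.26.0 is also named. The deposited gene files hold raw counts per gene from HTSeq. The deposited peak lists give a fold enrichment (a ratio to Input), a score in whole numbers, and both p-value and q-value on the −log10 scale. The p-value and score were not used for tests, and the lowest −log10 q was 2.00. HTSeq lines that name no gene were left out (no feature 2.86 to 6.55%, ambiguous 2.19 to 2.58%, not unique 3.34 to 3.83% of a library's reads).

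Exons, stop codons and symbols came from GENCODE vM21 on GRCm38, which is the same assembly as mm10, and sequence from RefSeq's GRCm38.p6. All 1934 members were placed on it. Gene identifiers were matched without version, which placed 1177 of 1180 host genes in the counts, and 1154 passed the filter of at least 10 counts in at least 3 Inputs. Counts were tested with edgeR 4.0.16 in R 4.3.3 (TMM, quasi-likelihood test, 12 Inputs in one fit, 24 libraries for IP over Input, Benjamini-Hochberg over all genes, threshold 0.05). The SE of a log2 change is the change divided by the square root of its F statistic. Levels in CPM use TMM factors for host genes and plain totals for Ythdf2, Lyz2 and markers. Library shares were compared with exact permutation tests, two-sided. The edgeR step was tested on simulated counts. Motifs were searched on the peak's strand within 50 bases on either side of the summit.

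Named were the 20 peaks with the largest smallest fold, 8 sequences of these, the 10 hosts with most members, up to 4 genes per list, and per contrast the 4 host genes with the largest fall and the 4 with the largest rise among those called. A gene that this rule names is not reported here. The members, lists and tests were chosen with earlier results of these data known. The distance to the far exon end, GGAC and the exon lengths, the interaction term and the peaks described beyond this rule were added after the data had been seen. Alternatives were another scaling (RLE), no count filter, DESeq2 1.42.0, only the libraries of a contrast, a replicate block, leaving out single libraries, stricter peak thresholds, a larger overlap, exons of either strand and intervals free of exons.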

Additional observations from a re-analysis of the deposited data

Results flagged for a closer look

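Among 73 named host genes, the irradiation effect in the Inputs differed between cKO and WT for 34 by the interaction term of the edgeR fit, adjusted over all genes, and each value here is the log2 effect in cKO minus that in WT. It was positive for 17 and negative for 17. Of all 16090 genes tested, 15.0% had a positive and 15.2% a negative difference by the same test, and some of the 73 were named for the size of their change in these Inputs. The largest was Ankle1 (2.18 ± 0.68, SE, edgeR adjusted p = 0.019), on few counts. Among chemokines and a cytokine receptor, Ccl2 stood at 1.03 ± 0.14 (edgeR adjusted p = 8.9e-06), Il1r2 at 0.79, Ccl17 at 0.70, Ccl4 at 0.69 and Ccl6 at 0.31. Ccl2 was lower after irradiation in WT and higher in cKO. Genes of cell division had positive values as well, with Nuf2 at 0.84, Cenpq at 0.74, Ndc80 at 0.49, Kif4 at 0.46, Top2a at 0.34, Kif20b at 0.30, Tpx2 at 0.25 and Smc2 at 0.22, and the fitted change after irradiation was downward for each in both genotypes. Snhg15 (0.35), Mgl2 (0.33) and Wtap (0.28) complete the positive values.

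Negative values were found for Zc3h13 (-0.56 ± 0.08, edgeR adjusted p = 2.1e-05), Virma (-0.21) and Ythdc1 (-0.21) of the m6A machinery, and for the chromatin regulators Chd9 (-0.46), Chd1 (-0.39) and Setd5 (-0.35). Receptors and surface proteins in this direction were Csf2rb (-0.37), Itgax (-0.36), Plxdc2 (-0.34), Il6ra (-0.34) and Tgfbr2 (-0.23). The splicing factors Hnrnpm (-0.22), Hnrnpd (-0.18), Srsf5 (-0.16) and Luc7l2 (-0.13) and the transcription factors Irf4 (-0.27) and Bach1 (-0.15) were the others. The hemoglobin genes that were high in WT IR Inputs enter all of these differences, and their part was not tested. The WT Ctrl Inputs, which were part of the peak calls that chose the host genes, enter these differences too, and the part of this choice was not tested.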

How the results depend on the processing

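Of 620 values recomputed under an alternative, 599 kept their direction and their side of the threshold, or stayed within 1.5 times for a count. The number of intronic peaks was 914 with a fold of at least 4 in every replicate and 96 with the whole peak free of exons. With the whole peak free of exons, the difference in the intronic share between IR and Ctrl was 0.144 points (exact permutation p = 0.065), GGACT was 5.09 points and adenine 3.40 points higher in intronic windows, each the opposite direction. With the cKO Ctrl libraries alone, chosen after seeing the data, the fold, GGACT and adenine differences were 1.39, -3.74 and -0.328 (exact permutation p = 0.25). With the 6 libraries of the contrast alone, 379 host genes were called between cKO Ctrl and WT Ctrl, against 238. The cause was not tested.

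Leaving out 1 library in turn gave 2198 to 2227 peaks. It gave 494 to 686 called host genes in WT IR against WT Ctrl (582 in full), 682 to 692 in cKO IR against cKO Ctrl (750), 174 to 189 in cKO Ctrl against WT Ctrl (238), 629 to 719 in cKO IR against WT IR (699) and 1083 to 1090 for IP over Input (1093). Share differences ran from -2.20 to -1.76 points for irradiation and from -0.886 to -0.565 for genotype, and intronic minus exonic differences from 1.46 to 1.49 in fold, -3.35 to -3.13 points in GGACT and -0.477 to -0.428 in adenine. The replicate numbers did not pair the samples, since none of 18 correlations between same-numbered samples was over 0.1. With the replicate block, 561, 724, 215 and 686 host genes were called in these 4 contrasts, 454 by the interaction term and 1092 for IP over Input. Permuting within the replicate block kept the irradiation difference at -1.94 points (exact permutation p = 0.03125).

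Depth limits Car4, Gm34907, Gm49101, Gm46349, Ankle1 and Pknox2, whose Inputs held few counts. Gene counts cannot show intronic reads, and the peak lists give no reads per position, so the folds have no counting error of their own. Peaks were called per library against Inputs whose pairing is not given in the sources used here.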
